A study of Mus musculus with 4 samples.

Results

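Signals of 9 genes that mark B cells or carry their surface signals (Ms4a1, Faim3, Cd79a, Cd79b, Cr2, Cd22, Blk, Pax5 and Fcer2a) were examined in mouse salivary glands (SGs). They were taken by gene name from the scanner output of whole mouse genome arrays, which named 34844 genes in all, and 12 of the 55681 probes belonged to them. The genes were chosen by their measured values, since earlier results of the same arrays had shown several of them to be lower on the arrays labelled Myd88-KO, and their difference between the labels is therefore described below without a test.

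B cells recognize antigen with a membrane immunoglobulin that signals through the paired chains Cd79a and Cd79b, whose cytoplasmic tails are phosphorylated by kinases of the Src family, among them Blk. The complement receptor Cr2 lowers the threshold of that signal as part of a coreceptor, whereas the sialic acid-binding receptor Cd22 dampens it, and Pax5 is the transcription factor that commits precursors to the B lineage and maintains many of these genes. In SGs, B cells and the plasma cells derived from them are the local source of antibody that the glandular epithelium carries into saliva.

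The arrays measured total RNA of the submandibular glands (SMGs) together with the sublingual glands (SLGs) of female C57/BL6 mice at 10 weeks of age, as the labels give them, whereas the study's text names SMGs alone and more mice for each genotype. Of the 4 arrays, 2 were labelled Myd88-KO, from mice homozygous for a null allele of Myd88, the adaptor of most Toll-like receptors and of the interleukin-1 receptor family, and 2 were labelled Wildtype. According to the study's methods, mice of both genotypes were offspring of heterozygous parents, and lymph nodes, connective tissue and fat had been dissected away under a stereomicroscope. The labels do not state that the arrays of a label came from separate mice, so the spread between arrays may be technical.

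Each value below is a log2 signal on a scale where 0 is the array's own 75th percentile, unless it is called a difference, which is the mean of the Myd88-KO arrays minus that of the Wildtype arrays. Between 52.2% and 74.1% of all probes were well above background, the fewest on Myd88-KO array 1 (52.2%) and Wildtype array 2 (55.1%). All arrays lay on 1 slide and came from 1 scan, and their number limits the precision. The probe for Myd88 itself was not lower on the arrays labelled Myd88-KO (1.51 and 1.41, against 1.15 and 1.07 on Wildtype), and because the sources used here do not say which exons the null allele lacks, it does not check the labels. Over 22312 genes tested with limma, 0 (0%) passed the threshold of 0.05 after Benjamini-Hochberg adjustment (lowest adjusted p = 0.194), and 1 did so in the methods' t-test. More genes passed with normexp background correction, with median scaling and with trended and robust moderation, as given in the closing section on processing. At an unadjusted p under 0.05, 1525 (6.83%) were lower and 2190 (9.82%) higher on Myd88-KO, a split that depends on the scaling (1805 lower and 1754 higher with the 75th percentile of detected probes, 755 and 240 with median scaling).

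Signals were lower on both Myd88-KO arrays than on either Wildtype array for 7 of the 9 genes, by the brightest probe of each. Of all genes tested, 18.7% were lower without overlap in the same way and 33.2% were higher, and 3.42% were lower by 2-fold or more, against 4 of the 9 here. Faim3, Ms4a1 and Cd79b stood apart by differences of -6.40 to -5.08, Fcer2a by -2.06, and Cr2, Cd79a and Cd22 by -0.90 to -0.33, while Blk and Pax5 overlapped between the labels. The brightest Cd79a probe had an address on another chromosome than the gene. The dimmer Cd79a probe, placed at the gene, differed by -1.35 and was well above background on neither Myd88-KO array. The median difference of the 9 was -0.90, beside 0.06 over all genes tested. Over the arrays left out in turn it ranged from -2.17 to -0.71, with -2.17 without Myd88-KO array 2 and -1.88 without Wildtype array 2. Because the contrast chose the genes, these counts only restate how they were picked. In tissue RNA, fewer B cells, less RNA per B cell and less lymph node tissue in the dissected sample cannot be told apart.

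**Figure D1:**
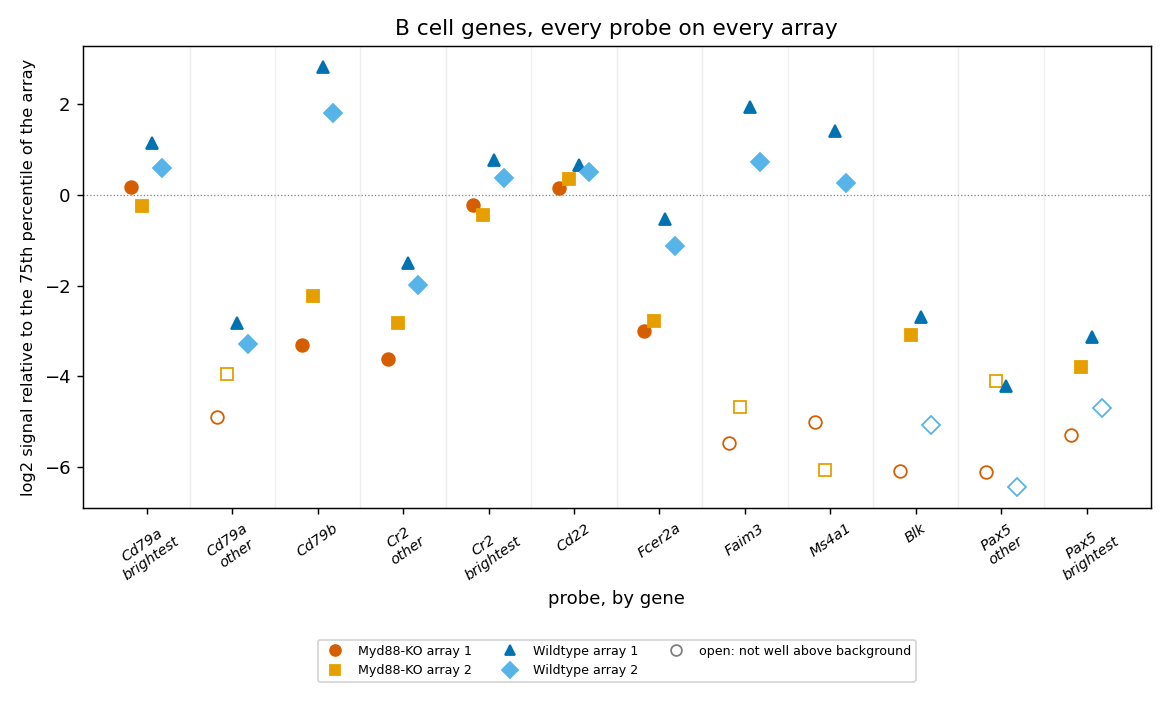
Log2 signal (relative to the 75th percentile of the array) of the 12 probes of the 9 B cell genes on the 4 arrays, 1 symbol per array, with open symbols where the probe was not well above background. For Cd79b, Faim3 and Ms4a1 the Wildtype symbols lie between 0.26 and 2.81 and the Myd88-KO symbols at or below -2.24, whereas for Blk and Pax5 the symbols of the labels interleave.

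The chains of the receptor complex were covered by 3 probes. Signals of Cd79b (chr11:106172780-106172839, NCBI37/mm9) were -3.31 and -2.24 on Myd88-KO arrays 1 and 2, and 2.81 and 1.79 on Wildtype arrays 1 and 2. All 4 values were well above background, the lower Wildtype value exceeded the higher Myd88-KO value by 4.03, and the means of -2.78 ± 0.76 and 2.30 ± 0.72 (SD, n = 2) differed by -5.08, or 33.8-fold. Cd79b was thus the gene of the complex with the widest gap, and one that was measured above background under both labels.

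Cd79a, its partner chain, had a pair of probes that differed in brightness. The brighter gave 0.18 and -0.24 on the Myd88-KO arrays and 1.15 and 0.58 on the Wildtype arrays, a difference of -0.89. The dimmer gave -4.89 and -3.94, not well above background on either array, and -2.82 and -3.29, a difference of -1.35 (at least 1.86-fold lower on Myd88-KO). Both probes were lower without overlap, but the brighter had an address in the scanner output on chromosome 12 (chr12:53180558-53180617, NCBI37/mm9), ends in a run of 6 A and holds the letters AATAAA. The dimmer was placed on chromosome 7 (chr7:25684357-25684614), where the RefSeq table (GRCm38.p6) also places Cd79a, over 258 bases for a 60-base probe, so that it crosses an exon junction and reads spliced transcript. Which transcripts the brighter probe binds was not tested. The junction probe is printed because it is the one of the pair placed at the gene.

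Cd79a junction probe: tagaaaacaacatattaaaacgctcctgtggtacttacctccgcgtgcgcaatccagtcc

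The 250 bases before the RefSeq start sites of the receptor complex and of its modulators were searched on both strands for 5 motifs known from promoters, most of them of B cell genes: the octamer ATGCAAAT, the E-box CAGGTG, the ETS core GGAAGT, the Ebf1 site (TCCC and GGGA with 2 bases between them) and the TATA box TATAAA. Entries were found for 6 of the 9 genes (Faim3 under its RefSeq symbol Fcmr, Cd79a, Cr2, Cd22, Pax5 and Fcer2a), with 8 start sites, and none for Ms4a1, Cd79b and Blk. Capitals mark the matches in the sequences printed here, with position -1 as the last base before the start site. The Cd79a promoter (chr7:24897247-24897496, plus strand, GRCm38.p6) holds the E-box at -154 to -149 and the ETS core at -54 to -49.

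Cd79a promoter: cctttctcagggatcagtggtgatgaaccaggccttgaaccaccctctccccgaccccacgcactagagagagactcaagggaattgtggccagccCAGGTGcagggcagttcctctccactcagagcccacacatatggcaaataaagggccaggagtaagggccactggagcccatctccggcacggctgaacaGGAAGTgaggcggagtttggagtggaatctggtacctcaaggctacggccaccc

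Cr2, the complement receptor of the coreceptor, was lower on Myd88-KO with both of its probes. The brighter (chr1:196965532-196965591, NCBI37/mm9) gave -0.22 and -0.44 on the Myd88-KO arrays and 0.75 and 0.37 on the Wildtype arrays, a difference of -0.90. The other (chr1:196963012-196963071), further along the transcript, gave -3.63 and -2.82 against -1.50 and -1.99, a difference of -1.48. Neither probe overlapped between the labels, and all 8 values were well above background. The Cr2 promoter (chr1:195176720-195176969, minus strand, GRCm38.p6) holds the same 2 motifs on the other strand, the ETS core at -130 to -125 and the E-box at -88 to -83.

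Cr2 promoter: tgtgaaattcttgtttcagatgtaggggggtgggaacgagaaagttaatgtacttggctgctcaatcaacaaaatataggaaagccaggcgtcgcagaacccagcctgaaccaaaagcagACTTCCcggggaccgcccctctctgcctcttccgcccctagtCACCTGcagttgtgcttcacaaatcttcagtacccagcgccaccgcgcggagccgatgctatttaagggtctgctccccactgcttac

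Cd22, the inhibitory receptor, had the smallest difference of the genes whose labels did not overlap. Its probe (chr7:31651249-31651308, NCBI37/mm9) gave 0.14 and 0.35 on the Myd88-KO arrays and 0.65 and 0.50 on the Wildtype arrays. The gap between the labels, 0.15, was about as wide as the gap between the 2 Wildtype arrays, also 0.15. Myd88-KO array 1 minus array 2 was -0.21, which is wider than the gap between the labels. The difference was -0.33. This probe is rich in A (48.3% of its bases, more than in 99.3% of all probes), and what it binds beside Cd22 was not tested. The Cd22 promoter (chr7:30879029-30879278, minus strand, GRCm38.p6) is the 1 of the 8 that holds the Ebf1 site, at -49 to -40, beside an E-box at -245 to -240.

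Cd22 promoter: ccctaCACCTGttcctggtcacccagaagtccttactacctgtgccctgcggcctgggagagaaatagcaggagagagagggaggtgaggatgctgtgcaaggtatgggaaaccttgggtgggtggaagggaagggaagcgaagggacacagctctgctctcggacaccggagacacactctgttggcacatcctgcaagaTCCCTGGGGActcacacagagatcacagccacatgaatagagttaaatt

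The receptors for antibody were apart by wider gaps. Fcer2a, the low-affinity IgE receptor CD23 of mature follicular B cells, gave -2.99 and -2.77 on the Myd88-KO arrays and -0.53 and -1.12 on the Wildtype arrays (chr8:3682343-3682402, NCBI37/mm9). All 4 values were well above background, and the difference was -2.06, or 4.16-fold. Faim3, the Fc receptor for IgM, gave -5.47 and -4.68 on the Myd88-KO arrays, not well above background on either, and 1.93 and 0.73 on the Wildtype arrays (chr1:132777256-132777315, NCBI37/mm9). Its measured difference was -6.40, and by the approximate bound defined in the section on processing it was at least 40.2-fold lower on Myd88-KO. The first of 3 start sites of Fcer2a (chr8:3694175-3694424, minus strand, GRCm38.p6) is shown because it is the 1 promoter of the 8 with a TATA box, at -33 to -28, and it holds the ETS core at -113 to -108.

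Fcer2a promoter: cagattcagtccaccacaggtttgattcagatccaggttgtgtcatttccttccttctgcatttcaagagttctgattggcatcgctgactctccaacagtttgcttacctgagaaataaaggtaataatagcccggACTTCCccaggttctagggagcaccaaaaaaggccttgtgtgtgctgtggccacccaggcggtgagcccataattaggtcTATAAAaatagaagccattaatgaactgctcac

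Of the 8 start sites of the 6 genes with an entry, the E-box was found before 4, the ETS core before 3 and the Ebf1 site before 1. The TATA box was found before 1 and the octamer before 0, and the counts by gene were the same. Among all 32851 promoters of the table, the E-box was found in 17.2%, the ETS core in 19.7%, the Ebf1 site in 0.779%, the TATA box in 12.4% and the octamer in 1.6%. No match overlapped another, and Fcer2a entered with 3 start sites. These matches describe letters in a window and not sites in use.

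Ms4a1, which encodes the surface protein CD20, carried by B cells from the precursor stage until they become plasma cells, had a single probe (chr19:11325367-11325426, NCBI37/mm9). It gave -4.99 and -6.06 on the Myd88-KO arrays, not well above background on either, and 1.40 and 0.26 on the Wildtype arrays. The labels were separated by 5.26, the measured difference was -6.36, and the bound was at least 28.5-fold lower on Myd88-KO. Ms4a1 and Faim3 passed the filter on dim probes only through the Wildtype arrays, so that they could enter the comparison in no other direction. With normexp background correction, which adds a fixed offset and shrinks the differences of dim spots, the differences were -2.90 for Ms4a1, -3.31 for Faim3 and -1.05 for Fcer2a.

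Blk, the Src-family kinase, and Pax5 were near the detection limit on all arrays and were not tested. Blk gave -6.09 and -3.09 on the Myd88-KO arrays and -2.70 and -5.08 on the Wildtype arrays, and was well above background on Myd88-KO array 2 and Wildtype array 1 only, the arrays on which most probes were detected. The brighter probe of Pax5 (chr4:44658421-44658480, NCBI37/mm9) was detected on the same arrays, with -5.30 and -3.80 against -3.13 and -4.69. For both genes the arrays of the labels interleaved, and the differences of -0.69 and -0.64 were smaller than the spread within a label, since Wildtype array 1 minus array 2 was 2.38 for Blk and 1.56 for Pax5.

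These differences of Blk and Pax5 have no settled direction. They were 0.80 and 0.11 without Myd88-KO array 1, 0.49 and 0.15 without Wildtype array 1, and 0.031 and 0.00026 with normexp. The other probe of Pax5, detected on Wildtype array 1 only, gave -6.09 and -4.10 against -4.22 and -6.44, a difference of 0.23. The probes of both genes that cross an exon junction lie at chr14:63997333-63998470 (Blk) and chr4:44550354-44582908 (the dimmer Pax5 probe) in NCBI37/mm9, and are printed since they are the ones that read spliced transcript of these genes.

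Blk junction probe: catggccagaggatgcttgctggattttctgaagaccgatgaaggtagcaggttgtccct
Pax5 junction probe: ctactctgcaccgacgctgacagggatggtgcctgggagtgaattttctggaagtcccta

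**Figure D2:**
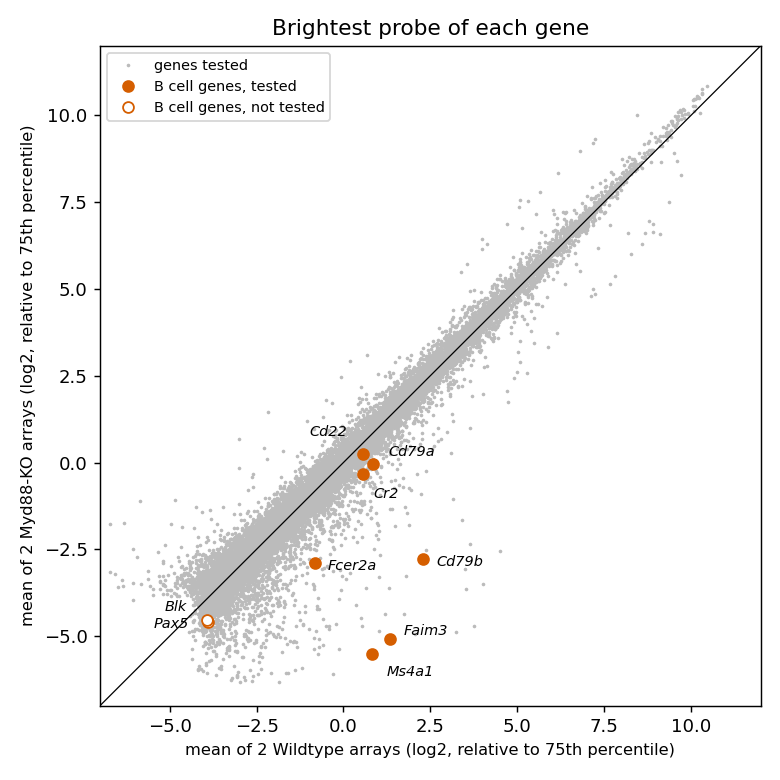
Mean log2 signal (relative to the 75th percentile of the array) of the 2 Myd88-KO arrays against that of the 2 Wildtype arrays for the brightest probe of each gene, with all 22312 genes tested in grey and the B cell genes in orange, open where not tested. The line marks equal signal. Cd79b, Faim3 and Ms4a1 lie far below it, at differences of -5.08, -6.40 and -6.36, Blk and Pax5 lie almost on each other at the dim end, and Cd22 is within the grey cloud.

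The 9 genes shifted the same way between the Wildtype arrays, which are also part of the contrast that chose them. Genes read on the same arrays are not replicates of each other. Wildtype array 1 was above Wildtype array 2 for 9 of 9 genes and for 12 of 12 probes, by a median of 1.02 over the genes, whereas the same held for 49.9% of all genes tested, with a median of 0.00. The difference ranged from 0.15 for Cd22 to 2.38 for Blk. Neither Blk nor Pax5 was well above background on Wildtype array 2, so that their differences rest partly on a value at background. Between the Myd88-KO arrays, array 1 was below array 2 for 6 of the 9 genes, beside 50.4% of all genes tested, with a median difference of -0.22. It was below for 9 of the 12 probes, with a median of -0.80. Wildtype array 1 was also the array with the most probes detected, and the part of detection in this order was not tested.

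The number of detected probes differed within each label, and therefore arrays with like numbers were set against each other. These pairs split the same contrast that chose the genes, so that lower values in both largely restate that choice. Between Myd88-KO array 2 and Wildtype array 1, which had the larger numbers, the 9 genes were lower on Myd88-KO by a median of -1.39, and between Myd88-KO array 1 and Wildtype array 2 by -1.01. All 9 brightest probes were lower in both pairs, and of the 12 probes 11 were, since the dimmer Pax5 probe was higher on Myd88-KO in both (0.12 and 0.35). Of all 22312 genes tested, 8723 were lower in the first pair and 9797 in the second. The largest shift between the pairs was that of Ms4a1 (-7.47 and -5.26), and Cd79b had nearly the same value in both (-5.05 and -5.11). Over all genes tested the medians of the pairs were 0.07 and 0.05.

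**Figure D3:**
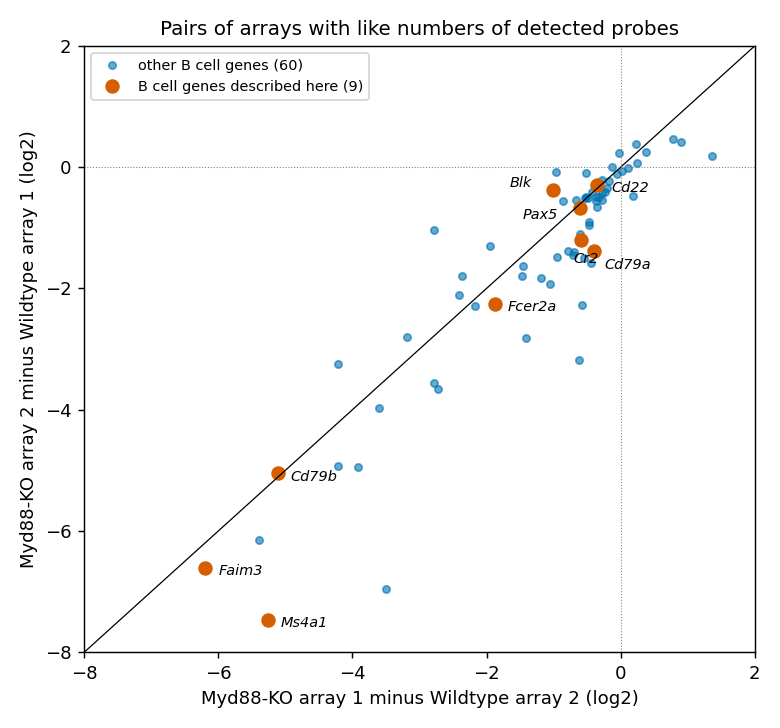
Log2 difference of Myd88-KO array 2 minus Wildtype array 1 against that of Myd88-KO array 1 minus Wildtype array 2, for the 9 B cell genes in orange and 60 other B cell genes in blue, with the line of equal values. All 9 genes lie below 0 on both axes, with Ms4a1 at -7.47 and -5.26. Blk and Pax5 were not well above background on Myd88-KO array 1 or Wildtype array 2.

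Of the other surface proteins of B cells, 21 of 22 listed genes were tested, and 18 of them were lower on Myd88-KO without overlap and 2 higher (18.7% and 33.2% of all genes tested), with a median difference of -1.49 (-0.73 with normexp). At an unadjusted p under 0.05, 17 were lower, beside 6.83% of all genes tested, and leaving out 1 array gave 11 to 16, with 11 without Wildtype array 1. Of these 21 genes, 9 entered the test only through the Wildtype arrays. Among the 12 well above background on all 4 arrays, 9 were lower without overlap, beside 17.9% of all such genes, and their median was -0.59. None passed the adjusted threshold.

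Among the members of this list with wide differences were Fcrla, an intracellular Fc receptor-like protein, Tnfrsf13c, the receptor for the survival factor BAFF, and Cxcr5, the chemokine receptor that guides B cells into follicles. Tnfrsf13c gave -4.59 and -4.70 on the Myd88-KO arrays and 0.25 and -0.67 on the Wildtype arrays, a measured difference of -4.44. Fcrla was at least 6.04-fold lower, Tnfrsf13c at least 13.8-fold and Cxcr5 at least 5.99-fold, with adjusted p-values from limma of 0.194 to 0.227 for the 3 genes. All 3 were well above background on both Wildtype arrays and on neither Myd88-KO array, as were Ms4a1 and Faim3.

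Genes that carry the signal of the receptor inside the cell were lower in part. Of 22 listed, 21 were tested, and 14 were lower without overlap and 2 higher (18.7% and 33.2% of all genes tested), with a median difference of -0.52, also among the 20 well above background on all 4 arrays. At an unadjusted p under 0.05, 11 were lower and 0 higher (6.83% and 9.82% of all genes tested), and the count of those lower was 6, 5 and 5 without Myd88-KO array 1, Myd88-KO array 2 and Wildtype array 1. Wide differences were those of the adaptor Bank1 (-1.91), the kinase Btk (-1.54) and the lipid kinase subunit Pik3cd (-1.51), with adjusted p-values from limma of 0.222 to 0.563. Bank1 overlapped between the labels (-6.15, not well above background, and -2.61 against -1.57 and -3.37), whereas Btk did not (-2.28 and -1.44 against 0.20 and -0.82).

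Of 15 listed transcription factors of the B lineage, 14 were tested, and 10 were lower without overlap and 2 higher (18.7% and 33.2% of all genes tested), with a median of -0.41. Of the 14, 3 entered only through the Wildtype arrays, and the median of the 11 well above background on all 4 arrays was -0.30. At an unadjusted p under 0.05, 4 were lower and 2 higher (6.83% and 9.82% of all genes tested), with 2 lower without Wildtype array 1. Spib, an ETS factor of B cells and plasmacytoid dendritic cells, gave -3.52 and -5.88 on the Myd88-KO arrays against 1.07 and -0.03, a measured difference of -5.22, and Ikzf1 (-1.90), Irf4 (-1.62) and Irf8 (-1.08) followed. Spib, Ikzf1 and Irf4 were well above background on 1 of the 2 Myd88-KO arrays, so that their differences rest partly on a value at background. Of 8 genes of early B cell development, 4 were tested and 3 were lower without overlap, Vpreb3 (-3.79, well above background on 1 Myd88-KO array), Il7r (at least 7.39-fold lower) and Dntt (-0.36), whereas Vpreb1 (-0.52) overlapped. Il7r is also a gene of T cells.

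Plasma cell genes lay on both sides. Of 9 tested, 3 were lower and 3 higher without overlap (18.7% and 33.2% of all genes tested), with a median of 0.18 (0.06 without Myd88-KO array 1 and 0.013 without Wildtype array 1). Igj, the chain that joins IgA and IgM into polymers, gave -6.27 and -3.44 on the Myd88-KO arrays against 1.28 and 0.76 (measured difference -5.87, the first Myd88-KO value not well above background), and 2010001M09Rik, known as Mzb1, was at least 8.01-fold lower. The 3 lower genes entered only through the Wildtype arrays, and of the 6 well above background on all 4 arrays 0 were lower without overlap. Creld2 (0.50) and Sdc1 (0.39), which secretory epithelium also expresses, were higher. Adjusted p-values from limma for these 4 genes were 0.194 to 0.257.

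Of the ligands and complement components that act on B cells, 5 of 12 listed were tested and 4 were lower without overlap (18.7% of all genes tested), with a median of -0.74. Cxcl13, the ligand of Cxcr5, gave -1.76 and -1.93 on the Myd88-KO arrays and 0.83 and -0.59 on the Wildtype arrays, and Icosl (-0.89), C3 (-0.74), whose fragments Cr2 binds, and C4b (-0.60) were lower by less. At an unadjusted p under 0.05, 3 of the 5 were lower (6.83% of all genes tested), and 0 without Myd88-KO array 1 and 2 without Myd88-KO array 2.

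**Figure D4:**
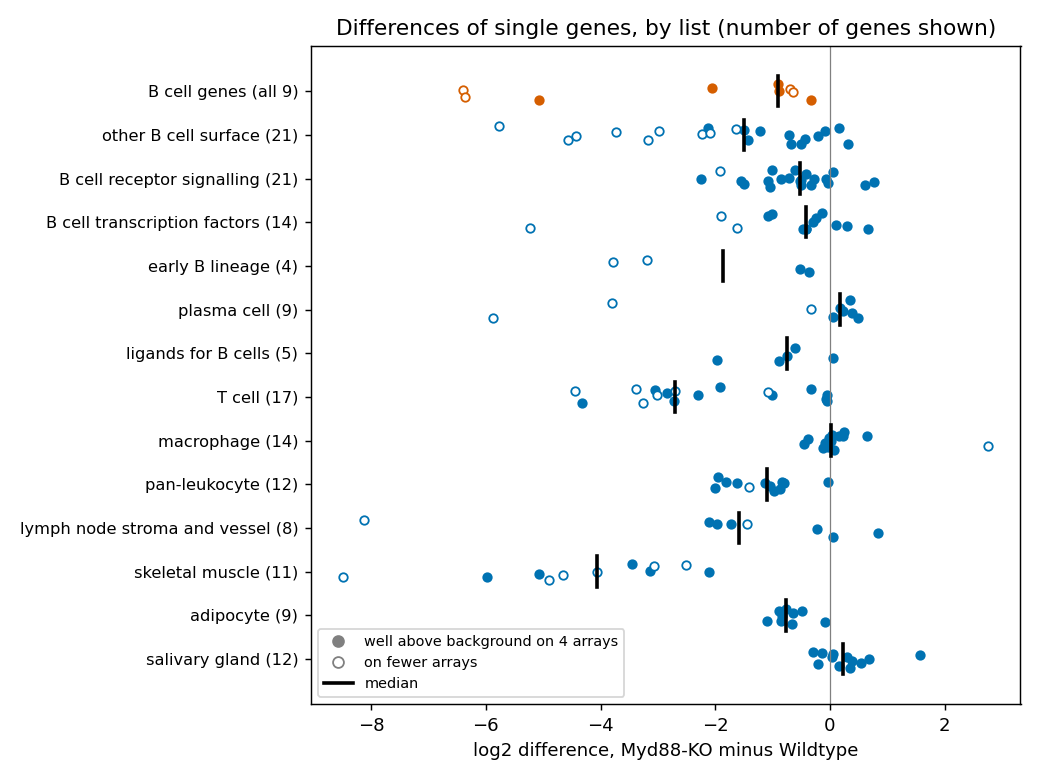
Log2 difference (Myd88-KO minus Wildtype) of single genes by list, the 9 B cell genes in orange and the other lists in blue, 1 point per gene, open where the probe was not well above background on all 4 arrays, with the median as a black bar. Medians run from -4.07 for skeletal muscle to 0.23 for salivary gland, and the B cell genes span -6.40 to -0.33.

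Markers of several other cells and tissues were also lower on the arrays labelled Myd88-KO, and their part in the difference of the B cell genes was not tested. Their counts without overlap stand beside 18.7% lower and 33.2% higher of all genes tested. T cell genes were lower without overlap for 12 of 17, with a median of -2.70 (-1.14 with normexp). Of the 17, 6 entered only through the Wildtype arrays, and among the 11 well above background on all 4 arrays 7 were lower, with a median of -1.92. The list had a log2 summed signal of 3.76 to 3.77 on Myd88-KO and 4.43 to 5.04 on Wildtype. Cd3d (-4.45), Ccr7 (-4.32), Cd5 (-3.38) and Cd3g (-3.27) were furthest apart (Cd3d, Cd5 and Cd3g well above background on 1 of the 2 Myd88-KO arrays), Cd3e was at -0.06, and 2 of the 17 were well above background on neither Myd88-KO array. Of the genes shared by leukocytes, 10 of 12 were lower without overlap (median -1.09, and -0.69 with normexp, summed 3.88 to 3.93 against 4.71 to 5.28), led by Rac2 (-2.01), Coro1a (-1.96), Cd53 (-1.80) and Ptprc (-1.61). Macrophage genes were lower without overlap for 1 of 14 and higher for 3, with a median of 0.03 that turned sign between scalings (-0.026 with median scaling) and a sum of 6.49 to 6.50 against 6.38 to 6.43. Cd68 was at -0.09 and Emr1 at 0.65, and Cd163 (2.76) was well above background on 1 of the 2 Wildtype arrays.

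Of 8 genes listed for lymph node stroma and vessels, 5 were lower without overlap and 2 higher (18.7% and 33.2% of all genes tested). The list had a median of -1.59 (-0.61 with normexp, -0.97 without Wildtype array 1) and a sum of 4.32 to 4.38 against 4.71 to 5.55. Glycam1, a mucin of high endothelial venules, gave -6.29 and -3.48 on the Myd88-KO arrays, the first not well above background, and 4.20 and 2.26 on the Wildtype arrays. Ltb (-2.11), Cxcl13 (-1.96) and Fut7 (-1.72) followed. Ltb and Fut7 are also genes of leukocytes, and Cxcl13 is counted among the ligands too, so that the list is not specific to lymph node tissue. Madcam1, an addressin of venules named after its values were seen, was higher, with 2.29 and 2.05 on the Myd88-KO arrays against 1.31 and 1.33. Lymph node tissue in the dissected sample and B cells within the gland cannot be told apart with these arrays. Wildtype array 1 was above Wildtype array 2 for 7 of these 8 genes and for 16 of the 17 T cell genes, as it was for all 9 B cell genes. The same order held for 12 of the 12 genes shared by leukocytes and 11 of the 14 macrophage genes, beside 49.9% of all genes tested.

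Skeletal muscle genes were lower without overlap for 11 of 11, beside 18.7% of all genes tested (median -4.07, and -1.99 with normexp, summed 1.61 on both Myd88-KO arrays against 4.51 to 7.01), with Myh4 (at least 218-fold), Tnnc2 (-5.99), Tnni2 (-5.07), Tnnt3 (-4.90, not well above background on Myd88-KO array 1) and Acta1 (-2.11). Of the 11, 6 entered only through the Wildtype arrays, and the median of the 5 well above background on all 4 arrays was -3.45. Here the order within the label was the opposite of that of the B cell genes, since Wildtype array 2 was above Wildtype array 1 for 10 of 11. Adipocyte genes were lower without overlap for 8 of 9 (median -0.76, and -0.46 without Myd88-KO array 1), with a sum of 7.42 to 8.03 against 8.47 to 8.50 and Adipoq at -0.76. At an unadjusted p under 0.05 in limma, 4 of the 9 were lower, beside 6.83% of all genes tested. Salivary gland genes, which define the labelled tissue, were bright on all arrays (sum 12.93 to 12.94 against 12.49 to 12.62), with a median of 0.23 (-0.0076 with quantile normalization) and Aqp5 at 0.17. Of these 12 genes, 7 were higher without overlap, beside 33.2% of all genes tested, and 1 lower, with Smgc (1.57), Krt8 (0.68), Krt18 (0.54) and Pip (0.38) furthest apart.

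Among genes outside the 9, those with the most similar course over the 4 arrays were found by the distance between centred signals and the median of the 7 B cell genes tested (-1.14 and -0.92 on Myd88-KO, 1.33 and 0.73 on Wildtype). The 10 nearest of the genes tested were Gimap8, Wdfy4, Ccl8, AA388235, Ptprcap, Cd53, Cd209a, Grap, Hvcn1 and Hells, at distances of 0.07 to 0.28. Gimap8 gave -1.50 and -1.24 on the Myd88-KO arrays and 1.05 and 0.46 on the Wildtype arrays. With 4 arrays the likeness rests on few points and is given as a description.

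**Figure D5:**
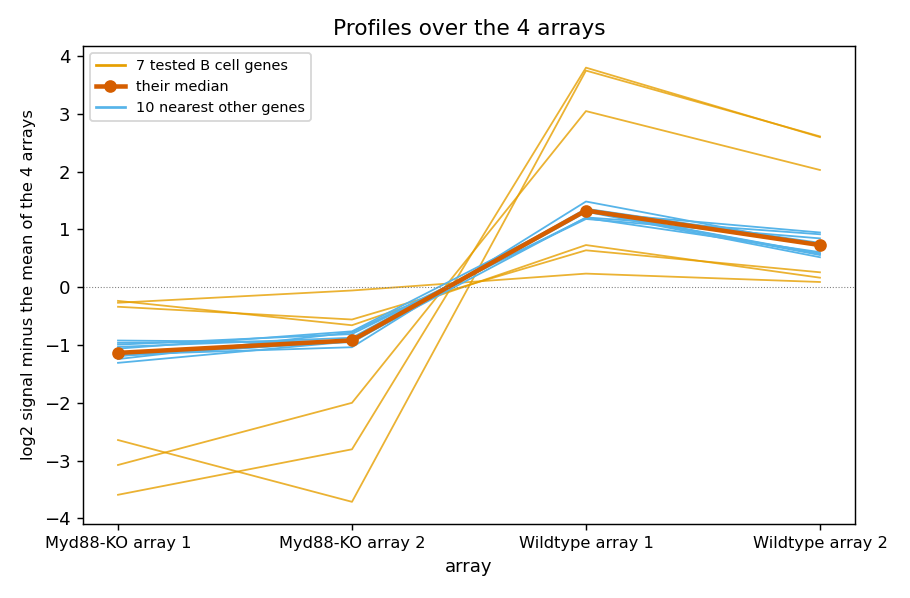
Log2 signal of each gene minus its mean over the 4 arrays, for the 7 B cell genes tested (thin orange lines), their median (thick line) and the 10 genes nearest to that median (blue lines). The median runs from -1.14 and -0.92 on the Myd88-KO arrays to 1.33 and 0.73 on the Wildtype arrays.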

How the data were processed

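Total RNA of SMGs and SLGs was labelled with Cy3 and hybridized to 1-colour Agilent arrays, 1 sample per array. The values deposited for each array are those of Agilent Feature Extraction 10.7.3.1, in which the processed signal is a spot intensity corrected for background without normalization between arrays (gene names and positions are those of the deposited files, NCBI37/mm9). A deposited table of the whole series with 4 value columns was not used, since its columns match no label.

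From the files, outlier spots were left out (99 to 131 per array), log2 intensities of 59305 non-control spots were taken relative to each array's 75th percentile, and spots of a probe were averaged. A probe was tested when well above background (over 0.5 of its spots) on both arrays of at least 1 label, and a gene was read from its brightest tested probe. limma 3.58.1 in R 4.3.3 (lmFit, then eBayes) compared the labels, with Benjamini-Hochberg adjustment at 0.05, after the procedure had been tested on simulated data. A fold written as "at least" sets the mean of the brighter label against, for each array of the dimmer label, the lowest signal well above background or the probe's own if higher. On Myd88-KO array 1 that lowest signal was -3.97, yet Irf4 at -3.77 was not well above background there. These bounds are therefore approximate. Named are the 9 genes, up to 4 genes of each other list with the widest difference, and Igj, Cd3e, Ptprc, Cd68, Glycam1, Cxcl13, Aqp5, Acta1, Adipoq and Myd88. Some genes that the rule names are not reported here. The genes, the lists and the rule were chosen with earlier results of these data known.

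With 2 arrays per label, a two-sided exact permutation test can give no p below 0.333, and none was used. The alternatives tried numbered 15 planned (background correction, scaling, filter, probe choice, moderation, test, replicate block, and each array left out) and 1 added after seeing the data. Promoter sequences are from RefSeq (GRCm38.p6).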

Additional observations from a re-analysis of the deposited data

How the results depend on the processing

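The differences of Ms4a1, Faim3, Cd79a, Cd79b, Cr2, Cd22 and Fcer2a stayed below 0 under every alternative that could be computed for them (the stricter filter, well above background on all 4 arrays, gives no value for Ms4a1, Faim3, Blk and Pax5). Blk and Pax5 turned sign with normexp (0.031 and 0.00026) and, over the arrays left out in turn, ranged from -2.19 to 0.80 and from -1.42 to 0.15 (above 0 without Myd88-KO array 1, 0.80 and 0.11, and without Wildtype array 1, 0.49 and 0.15). The median of the 9 genes ranged from -2.17 to -0.71 over the arrays left out, with -2.17 without Myd88-KO array 2 and -1.88 without Wildtype array 2, and 7 to 9 genes were then lower without overlap. The macrophage median was -0.0099 with normexp, -0.015 with quantile normalization, -0.021 with the 75th percentile over detected probes, -0.026 with median scaling and -0.18 to 0.16 over the arrays left out, and the salivary gland median -0.0076 with quantile normalization. Counts over all genes moved more. The adjusted threshold was passed by 0 genes, but by 79 with normexp, 402 with median scaling, 482 with trended and robust moderation and 1 with the methods' t-test. Median scaling gave 755 lower and 240 higher at an unadjusted p under 0.05 and 1867 and 1183 without overlap, and the 75th percentile over detected probes 1805 and 1754, and 5246 and 6058, where the main scaling gave 1525 and 2190, and 4181 and 7412. The methods' t-test gave 926 lower, and no filter on dim probes gave 1414 higher. Whether the replicate numbers of the titles pair the arrays is not known. The deviations of same-numbered arrays had a correlation of -0.35 over 20494 genes. This value cannot decide it, since more probes were detected on array 2 of Myd88-KO but on array 1 of Wildtype. With the replicate number as a block, 1238 were higher and 1172 lower, and with crossed pairs, chosen after seeing the data, 2317 and 1840, with 0 past the adjusted threshold in either. Leaving out 1 array gave 957 to 1661 lower and 1097 to 1407 higher at an unadjusted p, and 6283 to 7250 lower without overlap, where fewer arrays make overlap rarer by construction. A probe not well above background bounds a difference, and the cause of each other change was not tested.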

Other observations

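Transcripts of the immunoglobulins themselves were not covered by the symbols listed for their constant regions, of which 1 of 12 was on the array and 0 were tested, so probes were found afterwards by their description, with their values seen. No probe found in this way was described as the constant region of alpha, the heavy chain of IgA, or of delta, so that these are not covered here. The constant region of kappa gave -3.84 and -2.32 on Myd88-KO arrays 1 and 2 and 3.79 and 3.19 on Wildtype arrays 1 and 2, a log2 difference of -6.57, with the first Myd88-KO value not well above background. Lambda constant 2 gave -3.80 and -2.72 against 2.33 and 1.26, all well above background, and the constant region of mu, with 10 spots, gave -2.10 and -1.49 against 1.73 and 0.25. Gamma 1 was lower with both of its probes (measured differences -6.11 and -4.07, with neither probe well above background on Myd88-KO array 1), whereas gamma 2C overlapped between the labels (-6.25 and -2.50 against -3.32 and -6.62) and was detected on 1 array of each. These light chain and heavy chain regions share sequence within their families, so a probe may read several of them.

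Of 96 probes described as variable regions, 48 were tested, 39 of these were lower on Myd88-KO without overlap and 1 was higher, with a median difference of -2.31, beside 5532 lower and 9812 higher of 31016 probes tested. Of the 48, 40 entered the test only through the Wildtype arrays. Among the 7 well above background on all 4 arrays, 5 were lower without overlap, with a median of -1.45.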
